A study of Homo sapiens with 9 samples.

Results

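Interleukin-4 and interleukin-13, their receptor chains, the transcription factor STAT6 and 3 genes known to be induced by these cytokines were followed in L-1236, a Hodgkin lymphoma line. The set held 9 genes (IL4, IL13, IL4R, IL13RA1, IL13RA2, STAT6, FCER2, MAOA and ALOX15) out of 17687 named genes on human Clariom S arrays. Each was found by its annotated symbol, and each had 1 row in the deposited table, so that no choice between rows by their mean was needed. The genes were selected on their annotated symbols, with their log2 differences between clones and control partly known. FCER2 and IL13RA1 were known to be lower in the knockout clones, and MAOA and ALOX15 may have been picked for the same reason. The differences of these 4 genes from control are therefore given as a description, with no test.

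There were 3 groups of 3 arrays. All cells had received the lentiCRIPSPR v2 vector, which carries Cas9. For the control cells (v2 in the genotype label, wild type in the titles) the labels name no guide. In clone g2_1 the LTA guide was directed to the second exon, and in clone g3_4 to the fourth, so each knockout is represented by 1 clone. LTA encodes the secreted cytokine lymphotoxin alpha. Before the experiment the knockout clones were grown in conditioned medium of the parental line, and RNA was taken after 72 h in normal medium. Whether the control cells had been in conditioned medium, or were 1 clone, is not given in the sources used here. Nor is it given whether the 3 arrays of each group stem from separate cultures, so p-values speak only of how far these arrays scatter, and that scatter may be technical.

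IL-4 and IL-13 are cytokines of type 2 immunity. IL-4 binds the chain encoded by IL4R, which then pairs with the common gamma chain (IL2RG) or with the chain encoded by IL13RA1, and IL-13 signals through the pair of IL13RA1 and IL4R. Janus kinases on these chains phosphorylate STAT6, which dimerises, enters the nucleus and binds palindromic sites in the promoters of its target genes. Reed-Sternberg cells of Hodgkin lymphoma are known to make IL-13 and to respond to it.

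Among the genes with a promoter window, FCER2 is the gene where letters of a STAT site were found beside a large difference in signal. No window was held for IL13RA2 or for ALOX15, which also had a large difference, so neither was searched. RefSeq windows of build GRCh38.p14, running from 250 bases before to 50 bases after a gene start, were held for 7 of the 9 genes. They were searched on both strands for TTC and GAA parted by any 4 bases, the spacing that STAT6 prefers, and for TTC and GAA parted by any 3 bases (TTCNNNGAA), the spacing shared by other STAT proteins. Both forms read the same on either strand. FCER2 has 2 start sites, which give isoforms with different first exons, and their windows are printed with the match in capitals. The windows of MAOA and IL13RA1, 2 other genes with large differences, are printed beside them for comparison and hold neither form. All 4 are written 5′ to 3′ on the strand of the gene.
FCER2, upstream start (chr19:7702082-7702381, minus strand): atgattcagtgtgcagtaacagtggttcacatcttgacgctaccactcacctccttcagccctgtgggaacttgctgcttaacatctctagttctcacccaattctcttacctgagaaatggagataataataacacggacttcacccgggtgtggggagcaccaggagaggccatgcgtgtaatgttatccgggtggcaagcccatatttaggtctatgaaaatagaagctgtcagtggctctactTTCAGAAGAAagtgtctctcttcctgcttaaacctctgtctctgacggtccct
FCER2, downstream start (chr19:7699392-7699691, minus strand): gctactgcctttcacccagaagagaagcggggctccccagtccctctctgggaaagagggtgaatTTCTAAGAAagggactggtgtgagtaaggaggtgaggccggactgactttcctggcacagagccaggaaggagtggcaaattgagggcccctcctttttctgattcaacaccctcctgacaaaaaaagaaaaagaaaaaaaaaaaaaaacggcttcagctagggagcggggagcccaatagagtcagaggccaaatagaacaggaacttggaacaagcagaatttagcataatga
MAOA (chrX:43656049-43656348, plus strand): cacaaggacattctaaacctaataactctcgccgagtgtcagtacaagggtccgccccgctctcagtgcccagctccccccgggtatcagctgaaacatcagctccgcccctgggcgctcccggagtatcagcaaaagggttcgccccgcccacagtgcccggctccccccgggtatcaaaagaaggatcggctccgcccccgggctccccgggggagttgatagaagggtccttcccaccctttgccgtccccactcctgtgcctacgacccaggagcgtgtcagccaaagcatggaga
IL13RA1 (chrX:118727356-118727655, plus strand): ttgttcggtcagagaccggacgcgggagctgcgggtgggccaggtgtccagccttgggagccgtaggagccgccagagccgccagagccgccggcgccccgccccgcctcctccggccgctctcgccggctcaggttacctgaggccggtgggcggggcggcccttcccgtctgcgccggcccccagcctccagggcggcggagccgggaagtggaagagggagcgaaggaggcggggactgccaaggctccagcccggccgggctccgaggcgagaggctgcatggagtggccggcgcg

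At the upstream start of FCER2 the match TTCAGAAGAA began 3 bases before the start, and at the downstream start the match TTCTAAGAA began 185 bases before it. Of 9 windows of the set, 3 held a match, the other one being IL4 with TTCACAGGAA 172 bases before its start. Among all 35116 windows of this length, 6.44% held the form with 4 bases between, 7.66% the form with 3 and 13.5% either. The FCER2 windows had a GC content of 47.7% and 48.7% with 6 and 4 CG dinucleotides, whereas IL13RA1 had 76.3% with 35 and MAOA 63.0% with 19. The median over all windows was 58.7% with 14. The windows of IL4R (79.3%, 42 CG dinucleotides) and STAT6 (57.7%, 12) held neither form.

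The labels were checked on LTA, the targeted gene, which read 11.58, 11.07 and 11.08 on the control arrays, 7.97, 7.53 and 7.11 on those of g2_1, and 6.94, 7.25 and 6.61 on those of g3_4. Every clone array lay below every control array, and the arrays of the clones overlapped each other. The values are log2 signals after RMA, which corrects background, draws the probes of all arrays to one distribution and summarises the probes of a gene. They carry no detection flags, so that a gene at the floor cannot be told from one that is absent. The first quartile of all values, 4.64, is used below to mark signals near the floor. With 3 arrays a group, precision is limited by their number. The median of the arrays was 6.24 to 6.25 in control cells and 6.12 to 6.16 in the clones. Of the markers of Hodgkin and Reed-Sternberg cells, TNFRSF8, which encodes CD30, was at 11.11 in control cells. It rose by 0.79 in g2_1 and by 0.70 in g3_4. The transcription factor gene GATA3 was at 9.95 and fell to 8.52 in g2_1 and 8.46 in g3_4. CCL22 fell from 6.32 to 5.06 and 5.22, and CCL5 from 11.05 to 10.29 and 10.07. CD83 rose from 7.53 to 8.09 and 8.05. Its calls were lost in limma without some single arrays (adjusted p up to 0.0626 in g2_1 and 0.0865 in g3_4). Monocyte and macrophage markers averaged 5.17 to 5.33 per control array over 9 genes, 5.25 to 5.36 per g2_1 array and 5.16 to 5.4 per g3_4 array. Of these 9, 0 were lower in either clone and 1 (CD68, at 0.73, adjusted p = 0.0401) was higher in g3_4, and LYZ and FCGR1A lay under the first quartile on every array. T and NK cell markers averaged 5.82 to 6.10 per control array and 6.21 to 6.26 per clone array over 10 genes, with 1 rise in g2_1 (CD2) and 2 in g3_4 (CD2 and NCAM1) and 0 falls (1 in g2_1 and 0 in g3_4 at an unadjusted p under 0.05). Of 12 markers of Hodgkin and Reed-Sternberg cells, 4 rose and 3 fell in g2_1, and 2 rose and 5 fell in g3_4. B cell markers averaged 6.91 to 7.04, 6.90 to 6.91 and 6.85 to 7.05 over 7 genes, and fibroblast markers 5.45 to 5.63, 5.47 to 5.63 and 5.45 to 5.55 over 6, in control, g2_1 and g3_4. Of the 7 B cell markers, 2 rose and 2 fell in each clone (28.6% each way). Of the 6 fibroblast markers, 1 fell in g2_1 (16.7%) and 0 in g3_4 (1 at an unadjusted p under 0.05). Of all transcript clusters, 6.19% rose and 8.06% fell in g2_1, and 6.12% rose and 8.16% fell in g3_4. The Hodgkin and B cell lists exceeded these shares in both directions in each clone. The T and NK, monocyte and fibroblast lists did not. All these lists were chosen with earlier results of these data known, so their counts are no independent evidence of a direction. What part these markers have in the results was not tested.

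**Figure D1:**
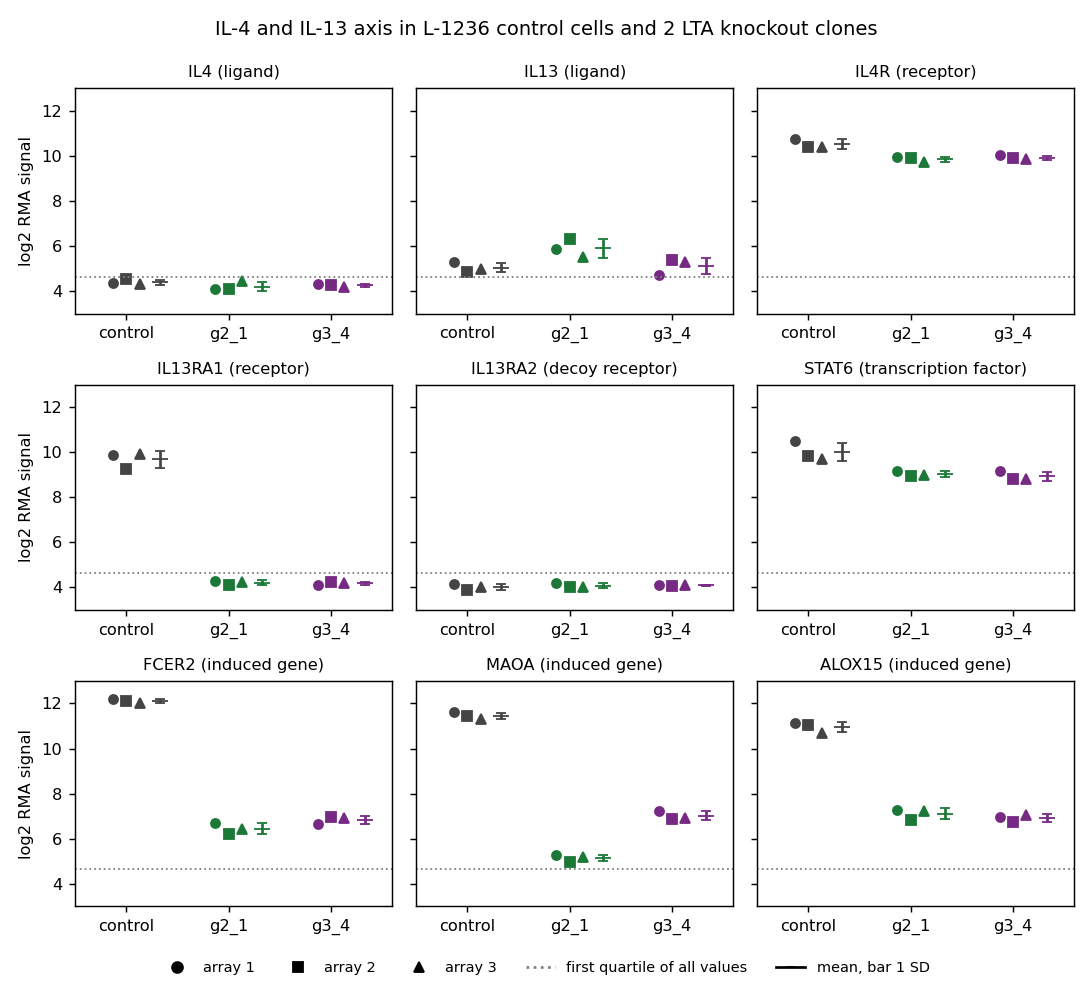
Log2 RMA signal (vertical axis) of the 9 genes on each array of control cells, clone g2_1 and clone g3_4 (horizontal axis); circles, squares and triangles are arrays 1, 2 and 3, the bar shows mean and SD of 3 arrays, and the dotted line is the first quartile of all values (4.64). IL13RA1 drops below the dotted line in both clones, FCER2, MAOA and ALOX15 drop but stay above it, and the MAOA arrays of g3_4 lie above those of g2_1, by 1.87 on average.

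The ligands were at or near the floor. IL4, which drives B cell class switching to IgE, read 4.36, 4.53 and 4.32 on control arrays 1, 2 and 3, 4.08, 4.09 and 4.45 in g2_1, and 4.32, 4.27 and 4.19 in g3_4. All 9 arrays lay under the first quartile and the groups overlapped or touched. Its log2 difference from control was -0.20 (SE 0.12, adjusted p = 0.357 in limma) in g2_1 and -0.14 (SE 0.12, adjusted p = 0.525) in g3_4.

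IL13, the neighbour of IL4 on chromosome 5 and the growth-promoting ligand of the pair in Hodgkin lines, was low but above the first quartile on every array. It read 5.29, 4.87 and 4.98 on the control arrays, 5.88, 6.30 and 5.50 in g2_1, and 4.73, 5.38 and 5.30 in g3_4. The g2_1 arrays were above all control arrays, by as little as 0.21, while the g3_4 arrays lay on both sides of them. IL13 rose by 0.85 (SE 0.22, adjusted p = 0.0256 in limma), or 1.80-fold, in g2_1. In g3_4 its difference was 0.09 (SE 0.22, adjusted p = 0.859). The direct comparison of the clones gave -0.76 (g3_4 minus g2_1, SE 0.22, adjusted p = 0.634), so a difference between them was not called. The rise in g2_1 was not called without g2_1 array 1 (0.85, adjusted p = 0.0709), g2_1 array 2 (0.64, adjusted p = 0.104), control array 2 (0.76, adjusted p = 0.0889) or control array 3 (0.81, adjusted p = 0.0665).

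The receptor chains went separate ways. IL13RA1, the chain that makes a receptor for IL-13, had control signals of 9.89, 9.25 and 9.92, well above the first quartile. It read 4.30, 4.12 and 4.24 in g2_1 and 4.12, 4.25 and 4.21 in g3_4. All 6 clone arrays lay under the first quartile, and the gap to the lowest control array was 4.95 in g2_1 and 5.0 in g3_4. The log2 difference was -5.47 (SE 0.16) in g2_1 and -5.49 (SE 0.16) in g3_4, or 44.2-fold and 45.0-fold, sizes that the floor of the array limits.

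IL4R is the chain shared by both cytokines. Its signal was 10.77, 10.41 and 10.38 in control cells, 9.94, 9.89 and 9.73 in g2_1, and 10.02, 9.89 and 9.85 in g3_4, with every clone array below every control array. It fell by 0.67 (SE 0.12, adjusted p = 0.00403 in limma) in g2_1 and by 0.60 (SE 0.12, adjusted p = 0.00739) in g3_4, which is 1.59-fold and 1.52-fold. IL13RA2, which binds IL-13 tightly and acts as a decoy, lay under the first quartile on all 9 arrays, between 3.91 and 4.22. Its differences were 0.05 (SE 0.10, adjusted p = 0.817) and 0.08 (SE 0.10, adjusted p = 0.716), and the groups overlapped.

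STAT6, the transcription factor of the pathway, read 10.48, 9.84 and 9.72 in control cells, 9.17, 8.94 and 8.98 in g2_1, and 9.16, 8.82 and 8.81 in g3_4. The clone arrays were all below the control arrays, with a gap of 0.55 in g2_1 and 0.56 in g3_4, and control array 1 was the highest. STAT6 fell by 0.98 (SE 0.19, adjusted p = 0.00463 in limma) in g2_1 and by 1.08 (SE 0.19, adjusted p = 0.0026) in g3_4, or 1.98-fold and 2.12-fold. Of the 5 members given with a test (IL4, IL13, IL4R, IL13RA2 and STAT6), 1 was higher and 2 were lower in g2_1, and 0 were higher and 2 lower in g3_4. The members were chosen with earlier results of these data known, and FCER2, IL13RA1, MAOA and ALOX15 are left out here. This count and the p-values of these members are therefore no independent evidence of a direction. Of all 20893 transcript clusters tested, 6.19% were higher and 8.06% lower in g2_1 (14.3% in either direction), and 6.12% and 8.16% in g3_4 (also 14.3%). Of the calls, 56.6% were falls in g2_1 and 57.2% in g3_4, shares that became 34.0% and 36.5% with each array centred on its median, while STAT6 and IL4R kept their calls under that scaling. Without a single array of the clone the rises numbered between 789 (without array 2) and 861 (without array 1) in g2_1, and between 806 (without array 2) and 851 (without array 3) in g3_4.

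Genes beside STAT6 on chromosome 12 were lower too. Among its 20 measured neighbours, 10 on each side in RefSeq order, 9 fell and 0 rose in g2_1 and 10 fell and 0 rose in g3_4, with medians of -0.60 and -0.54. STAT6 lay 0.39 below that median in g2_1 and 0.55 below it in g3_4. Of all transcript clusters, 8.06% fell in g2_1 and 8.16% in g3_4. The 8 genes that follow STAT6 had values between -0.54 and -3.95 in g2_1 and between -0.27 and -3.74 in g3_4. Of these 8, 6 passed the test in g2_1 and 7 in g3_4. They include SHMT2, a mitochondrial enzyme of serine metabolism, at -1.0 and -0.85, and INHBE, which encodes an inhibin subunit, at -3.95 and -3.74. GLI1 (-0.26 and -0.27) and ARHGAP9 (-0.18 and -0.11), which come next after INHBE, did not pass in either clone. On the other side NAB2, a repressor of EGR factors that lies next to STAT6, was at 0.12 (adjusted p = 0.729) and 0.06 (adjusted p = 0.875), while NEMP1, the next gene, fell (-1.20 and -1.25). The genes of this region were picked out after their values were seen.

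The neighbours of the other members are set here beside the 14.3% of all transcript clusters called in each clone. IL4 and IL13 share most of theirs. Beside IL4, 2 of 20 rose (IL13 and KIF3A) and 4 fell in g2_1, and 0 rose and 4 fell in g3_4. Beside IL13, 1 rose and 4 fell in each clone. The 4 that fell were P4HA2 (-0.52 and -0.52), SLC22A5 (-0.69 and -0.61), IRF1, an interferon-regulated transcription factor gene (-0.97 and -0.60), and SEPTIN8 (-1.03 and -1.09). Beside IL13RA1, 0 of 20 neighbours were called in either clone, the median was 0.00 in g2_1 and -0.05 in g3_4, and 8 of the 20 lay under the first quartile on every array. DOCK11, which lies next to IL13RA1 and was at 9.61 in control cells, had values of 0.28 (adjusted p = 0.208) and 0.39 (adjusted p = 0.0778). Beside ALOX15, 0 of 20 were called, with medians of 0.12 and 0.17. At an unadjusted p under 0.05 in limma these counts were 1 in g2_1 and 2 in g3_4 beside IL13RA1, and 1 and 4 beside ALOX15. Of the neighbours of FCER2, 2 rose and 1 fell in g2_1, and 3 rose and 1 fell in g3_4, with values of the called ones between -0.41 and 0.55. Their medians were 0.14 and 0.08, and TRAPPC5, next to it, was at -0.13 and -0.07. Near MAOA the medians were 0.02 and -0.01, with 1 rise and 3 falls in g2_1 and 1 rise and 2 falls in g3_4. Of these 20 neighbours, 6 lay under the first quartile on every array. IL4R had 1 lower neighbour of 20, SLC5A11, at -4.12 and -4.35, and a median of -0.05 and -0.07.

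**Figure D2:**
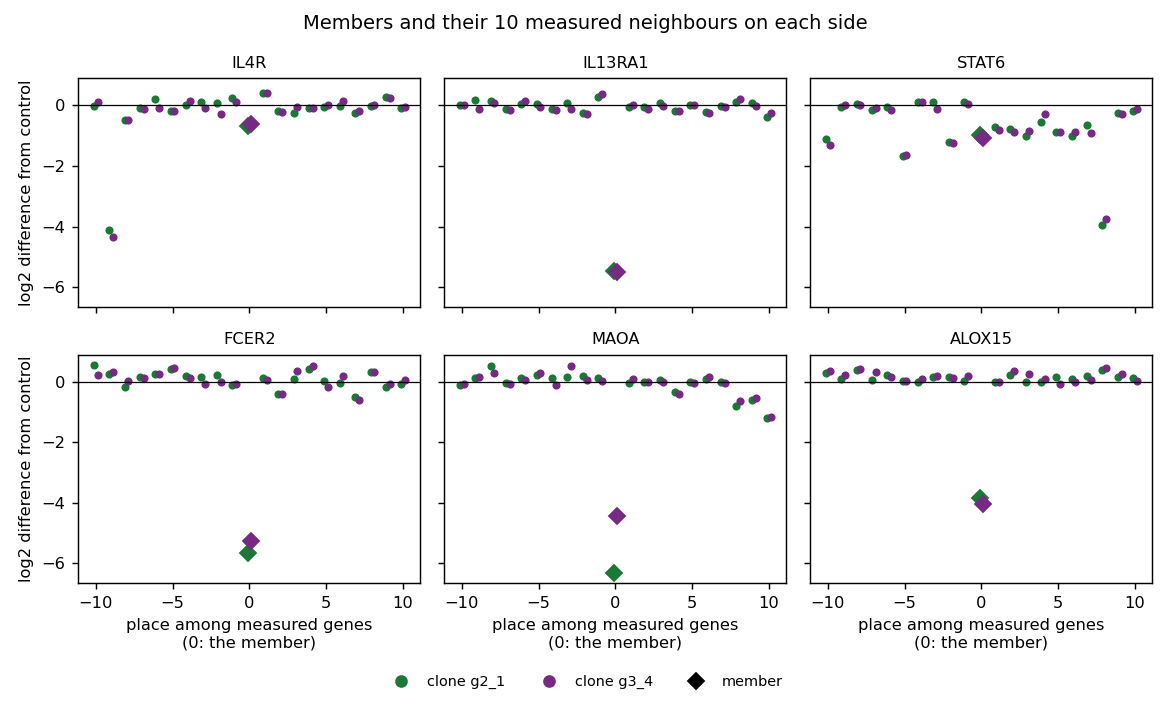
Log2 difference from control (vertical axis) of 6 members (diamonds) and of the 10 measured genes on each side in RefSeq order (dots; horizontal axis, place relative to the member) in clones g2_1 and g3_4. IL13RA1, FCER2, MAOA and ALOX15 lie far below neighbours whose medians are near 0, although CHST7, near MAOA, fell (-1.22 and -1.18). Of 20 neighbours each, 8 of IL13RA1 and 6 of MAOA lay under the first quartile on every array. STAT6 lies among neighbours of which 9 fell in g2_1 and 10 in g3_4.

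FCER2 encodes CD23, the low-affinity IgE receptor of B cells and a classical gene induced by IL-4. It read 12.21, 12.11 and 12.01 in control cells, 6.70, 6.21 and 6.42 in g2_1, and 6.64, 6.95 and 6.91 in g3_4. Control and clone arrays were 5.31 apart in g2_1 and 5.06 apart in g3_4. The log2 difference was -5.67 (SE 0.14) in g2_1 and -5.28 (SE 0.14) in g3_4, or 50.8-fold and 38.8-fold. The clone values stayed above the first quartile.

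ALOX15 encodes 15-lipoxygenase, which oxidises arachidonic acid and which IL-4 and IL-13 induce in monocytes. It read 11.12, 11.04 and 10.71 in control cells, 7.28, 6.83 and 7.21 in g2_1, and 6.97, 6.73 and 7.07 in g3_4. The clones overlapped each other and were at least 3.43 below the control arrays. The log2 difference was -3.85 (SE 0.15) in g2_1 and -4.03 (SE 0.15) in g3_4, or 14.4-fold and 16.4-fold.

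MAOA encodes monoamine oxidase A, a mitochondrial enzyme that degrades serotonin and noradrenaline. Its signal was 11.61, 11.43 and 11.32 in control cells, 5.27, 4.98 and 5.17 in g2_1, and 7.24, 6.89 and 6.90 in g3_4. The 3 groups did not overlap, with g2_1 lowest and g3_4 between g2_1 and control. The log2 difference from control was -6.31 (SE 0.13) in g2_1 and -4.44 (SE 0.13) in g3_4, or 79.5-fold and 21.8-fold.

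The clones differed from each other in MAOA. It was higher in g3_4 than in g2_1 by 1.87 (SE 0.13, adjusted p = 1.83e-04 in limma), a 3.66-fold difference in which all 3 g3_4 arrays exceeded all 3 g2_1 arrays. Between the clones 7 of 20893 transcript clusters (0.0335%) were higher in g3_4 and 4 (0.0191%) lower, 0.0526% in either direction. With array number as a block, which pairs the clones' arrays, 16 were higher and 11 lower. These counts moved with single arrays: without control array 1 there were 28 and 17, and without g2_1 array 2 there were 4 and 0. MAOA was the 1 member called. Its adjusted p lay between 9.48e-06 and 0.00261 over the alternatives, and its difference between 1.76 and 1.94. MAOA may have been picked for its fall in these same arrays. Whether that choice also drew on the difference between the clones is not known. For the other members the direct comparison (g3_4 minus g2_1) gave 0.05 for IL4 (SE 0.12), 0.07 for IL4R (SE 0.12), -0.03 for IL13RA1 (SE 0.16), 0.02 for IL13RA2 (SE 0.10), -0.10 for STAT6 (SE 0.19), 0.39 for FCER2 (SE 0.14) and -0.18 for ALOX15 (SE 0.15). The adjusted p of these 7 was 0.873 for FCER2 and 0.997 for the others.

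Genes related by sequence or function to the induced members mostly did not pass the test. MAOB, the other monoamine oxidase, was at 4.63 in control cells and had differences of -0.06 (SE 0.10, adjusted p = 0.798) and 0.07 (SE 0.10, adjusted p = 0.743). ALOX5, the lipoxygenase of leukotriene synthesis, lay under the first quartile on every array, with differences of -0.08 and -0.18. Of 11 measured relatives, 0 rose and 1 fell in g2_1, and 1 rose and 1 fell in g3_4. At 9.09% of the list for each single gene, these counts were near the shares over all transcript clusters (6.12% higher in g3_4, 8.06% and 8.16% lower). FCER1A, which encodes the IgE-binding chain of the high-affinity receptor, had the values -7.17 and -7.37 and reached signals under the first quartile. ALOX5AP, the partner protein of ALOX5, rose by 2.93 in g3_4 (adjusted p = 6.35e-04) and was at 1.11 in g2_1 (adjusted p = 0.103). The g2_1 value dropped to 0.49 without control array 1. Leaving out array 1 of every group gave 0.40 (adjusted p = 0.0438). It read 6.82, 8.70 and 8.65 in control cells, 9.34, 8.99 and 9.16 in g2_1, and 11.30, 10.81 and 10.86 in g3_4, so the groups did not overlap and control array 1 stood low. Between the clones ALOX5AP differed by 1.83 (adjusted p = 0.326, and 2.95e-04 without control array 1). The median of the relatives was -0.08 and 0.01, beside 0.03 for all transcript clusters in both clones.

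The signalling apparatus shared by these receptors held rises and falls. Of 25 measured genes, 6 rose and 3 fell in g2_1, and 8 rose and 2 fell in g3_4, with medians of 0.18 and 0.22. The rises were 24.0% and 32.0% of the list, beside 6.19% and 6.12% of all transcript clusters. The falls, 12% and 8%, were near the 8.06% and 8.16% of all. The list was chosen with earlier results of these data known, so its counts are no independent evidence of a direction. The 8 rises in g3_4 became 2 without g3_4 array 1, 5 without g3_4 array 2 and 4 without g3_4 array 3 or control array 2. JAK2, a kinase that can act on the IL13RA1 chain, was lower, at -2.73 (SE 0.19, adjusted p = 3.79e-06) and -2.68 (SE 0.19, adjusted p = 4.32e-06). TYK2, the other kinase described for that chain, had values of 0.10 and 0.11 and did not pass. JAK1, the partner of IL4R, rose by 0.45 in g3_4 (adjusted p = 0.0138) and was at 0.29 in g2_1 (adjusted p = 0.102). JAK3, which sits on the common gamma chain, rose by 0.41 in g3_4 (adjusted p = 0.0231) and was at 0.32 in g2_1 (adjusted p = 0.064). The call of JAK1 in g3_4 was lost without g3_4 array 1 (0.40, adjusted p = 0.0586), and that of JAK3 without g3_4 array 1 (0.34, adjusted p = 0.0907), g3_4 array 2 (0.42, adjusted p = 0.0596) or control array 1 (0.34, adjusted p = 0.0544).

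IL2RG, the common gamma chain, fell by 0.39 in g2_1 (adjusted p = 0.0206) from a control signal of 12.44 and was at -0.31 in g3_4 (adjusted p = 0.0536). With arrays centred on their median the g2_1 value was -0.27 (adjusted p = 0.0675), and the call was also lost without g2_1 array 1 (-0.35, adjusted p = 0.0801), g2_1 array 3 (-0.38, adjusted p = 0.0661) or control array 2 (-0.39, adjusted p = 0.0509). IRS2, the adaptor that IL-4 receptors phosphorylate beside STAT6, fell (-2.15 and -2.14) to signals of 4.52 and 4.53, under the first quartile. DOK2, an inhibitory adaptor, rose by 1.29 and 1.25.

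Feedback inhibitors were among the rises. CISH rose by 0.99 and 0.77, SOCS2 by 0.87 and 0.69 and SOCS3 by 0.83 and 0.74, all past the test in both clones. SOCS1, which inhibits Janus kinases and is itself induced by STAT6, rose by 0.53 in g2_1 (adjusted p = 0.0027) and was at 0.25 in g3_4 (adjusted p = 0.102), where centring of arrays gave 0.36 (adjusted p = 0.0228). The calls of SOCS3 rested on single arrays. In g2_1 the call was lost without g2_1 array 2 (0.72, adjusted p = 0.0571), and in g3_4 without g3_4 array 1 (0.75, adjusted p = 0.0615), g3_4 array 3 (0.64, adjusted p = 0.0916), control array 2 (0.57, adjusted p = 0.0772) or control array 3 (0.70, adjusted p = 0.0602). That of SOCS2 in g3_4 was lost without g3_4 array 1 (0.71, adjusted p = 0.0692), g3_4 array 2 (0.75, adjusted p = 0.0583), g3_4 array 3 (0.62, adjusted p = 0.104) or control array 2 (0.72, adjusted p = 0.0608).

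Receptors of related cytokines included genes with large falls. Of 14 measured, 2 rose and 4 fell in g2_1, and 3 rose and 5 fell in g3_4, with medians of 0.19 and 0.08. The rises were 14.3% and 21.4% of the list, beside 6.19% and 6.12% of all transcript clusters, and the falls 28.6% and 35.7%, beside 8.06% and 8.16%. The list was chosen with earlier results of these data known, so these shares are no independent evidence of a direction. IL5RA, the receptor chain for IL-5, fell (-5.19 and -5.31), and IL1RL1, the receptor for IL-33, fell (-4.52 and -4.63). Both cytokines belong to type 2 immunity, as IL-4 and IL-13 do. CSF2RB, the beta chain that IL5RA pairs with, fell (-1.57 and -1.58). IL2RA, a chain of the IL-2 receptor, rose by 1.12 and 0.88. IL2RB, its partner, was at 0.59 (adjusted p = 0.0182) and 0.49 (adjusted p = 0.0447), and IL15RA at -0.34 (adjusted p = 0.0449) and -0.44 (adjusted p = 0.0136). The IL2RB call was lost without any single g2_1 array in g2_1 (adjusted p up to 0.0607) and without any single array but control array 3 in g3_4 (up to 0.133). That of IL15RA was lost without any single array but g3_4 array 1 in g2_1 (up to 0.136) and without g3_4 array 1 in g3_4 (0.0548). The 2 rises in g2_1 became 1 without g2_1 array 2, and the 3 in g3_4 became 1 without g3_4 array 1. Of the 9 measured genes in the list of type 2 cytokines and alarmins, 0 rose in limma (1 in g2_1 and 0 in g3_4 at an unadjusted p under 0.05). The 1 fall, 11.1% beside 8.06% and 8.16% of all transcript clusters, was MAF (-0.87 and -0.89). MAF is a transcription factor gene that activates IL4 in T cells. The 8 others, which are the cytokines of the list, did not pass. Of the 9, 3 (IL5, IL33 and TSLP) lay under the first quartile on every array, where a fall could hardly be seen.

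**Figure D3:**
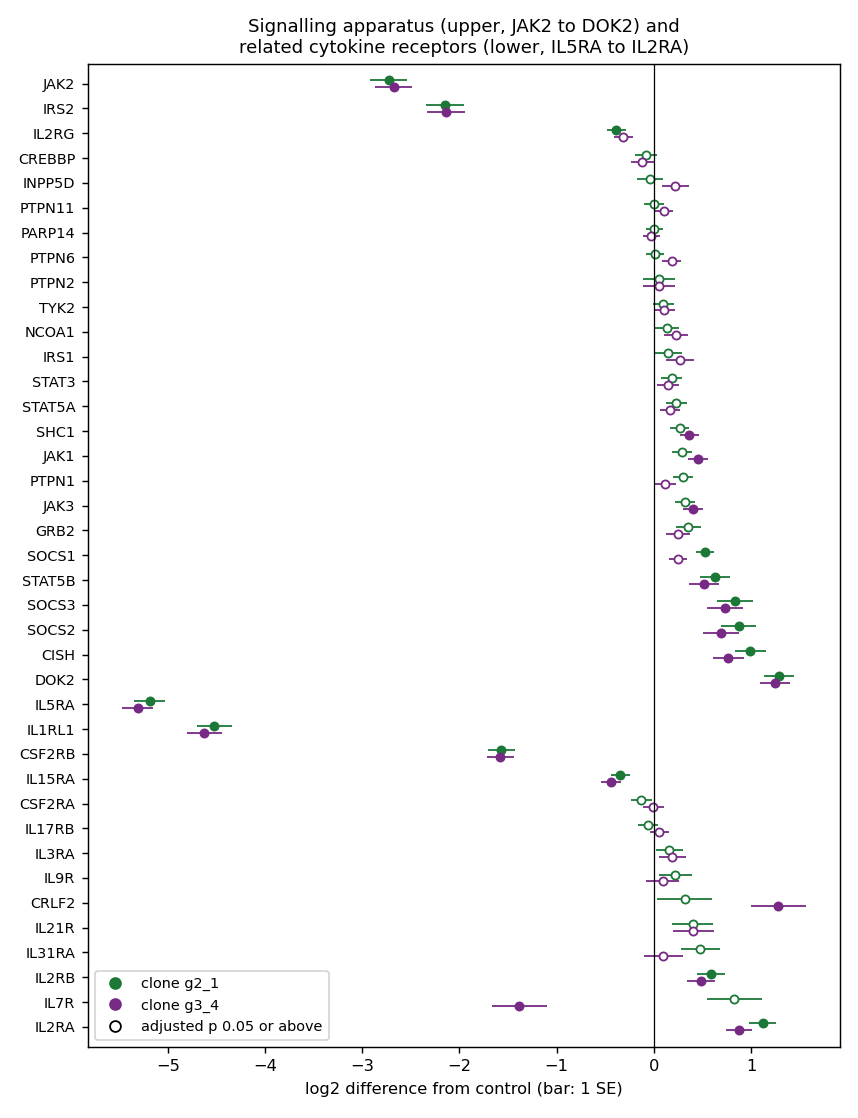
Log2 difference from control (horizontal axis, bar 1 SE) of 25 genes of the signalling apparatus (JAK2 to DOK2) and 14 receptors of related cytokines (IL5RA to IL2RA) in clones g2_1 and g3_4; filled points have an adjusted p under 0.05. JAK2, IRS2, IL5RA and IL1RL1 lie far to the left, and the inhibitors CISH, SOCS2 and SOCS3 lie to the right of 0.

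A wider list of genes known to be induced by IL-4 or IL-13 in macrophages, B cells or epithelium held more falls than rises. Of 43 measured genes, 4 rose and 11 fell in g2_1, and 4 rose and 12 fell in g3_4, while 28 and 27 did not pass. The list was chosen with earlier results of these data known, so its count is no independent evidence of a direction. That is 25.6% and 27.9% falls, beside 8.06% and 8.16% over all transcript clusters. The medians were 0.01 and -0.02, and 7 of the 43 lay under the first quartile on every array. Among transcript clusters at or above the median level of the arrays the falls numbered 6 in each clone. That filter removes dim genes that had fallen, among them CCL22, CD200R1 and SPINT2, so the lower count does not mean that their falls weakened.

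HOMER2, a scaffold protein gene, fell (-4.55 and -4.65). IL1R2, the decoy receptor for IL-1, read 12.47, 11.91 and 11.98 in control cells, 9.13, 8.58 and 8.48 in g2_1 and 10.06, 9.87 and 9.81 in g3_4. It fell (-3.39 and -2.21), and its value between the clones was 1.18 (adjusted p = 0.0872, and 0.00417 with array number as a block). In mean signal g3_4 lay between g2_1 and control in MAOA and IL1R2, an order picked out after the values were seen. Other genes had it too, among them FCER2 (12.11 in control cells, 6.83 in g3_4 and 6.44 in g2_1). In FN1 it ran upward (6.73, 7.42 and 7.75). CD200R1, an inhibitory receptor of myeloid cells, fell (-2.46 and -2.45), with control arrays between 5.45 and 7.52, and SPINT2, a protease inhibitor, fell (-2.04 and -1.94).

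The chemokines that Reed-Sternberg cells are known for were lower or near the test's limit. CCL22 fell by 1.26 (adjusted p = 4.42e-04) and by 1.10 (adjusted p = 0.00117). CCL17 read 7.59, 6.20 and 6.55 in control cells and at most 6.04 in the clones, so that control array 1 stood above the others. Its value was -0.92 in g2_1 (adjusted p = 0.0549) and -0.98 in g3_4 (adjusted p = 0.0418). Without control array 1 it was -0.52 in g2_1 (adjusted p = 0.0471), and over the alternatives its adjusted p in g3_4 reached 0.131. The g3_4 call was lost without any single array but control arrays 1 and 2. GATA3, a transcription factor of type 2 T cells that Reed-Sternberg cells also express, fell (-1.43 and -1.49).

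The members of the list that rose were MS4A4A, a surface protein of macrophages, by 2.91 and 3.15, the kinase gene PIM1 by 1.29 and 1.22, IL1RN, the IL-1 receptor antagonist, by 1.30 and 1.32, and the fibronectin gene FN1 by 1.02 and 0.69. The calls of IL1RN were lost without control array 1 (0.92 with adjusted p = 0.0661 in g2_1, 0.94 with adjusted p = 0.0606 in g3_4), the lowest control array at 6.28. They were also lost without control array 2 (adjusted p = 0.0549 and 0.0508), without g2_1 array 2 (0.99, adjusted p = 0.131) or 3 (1.40, adjusted p = 0.0658) in g2_1, and without g3_4 array 2 (1.16, adjusted p = 0.117) or 3 (1.23, adjusted p = 0.104) in g3_4.

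**Figure D4:**
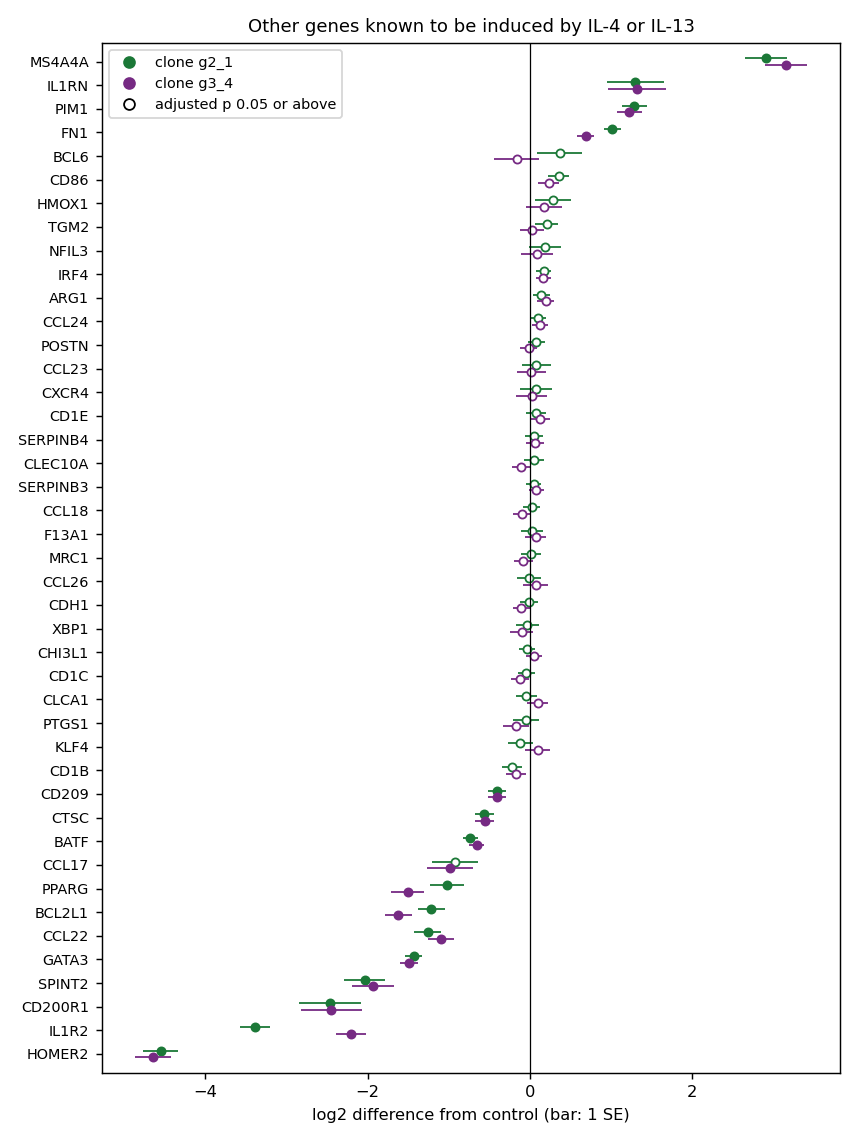
Log2 difference from control (horizontal axis, bar 1 SE) of 43 genes known to be induced by IL-4 or IL-13, other than FCER2, MAOA and ALOX15, in clones g2_1 and g3_4; filled points have an adjusted p under 0.05. Most genes sit near 0, 11 fell in g2_1 and 12 in g3_4, and IL1R2 is lower in g2_1 (-3.39) than in g3_4 (-2.21).

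The genes whose pattern over the 9 arrays was most like that of each strongly differing member were ranked by the root mean square distance between values centred on their own mean, given here as a description. For IL13RA1 they were CKMT1B at 0.17, IL5RA at 0.17 and RGS1 at 0.21 log2 units. For FCER2 they were CKMT1B at 0.22, CHRNA6 at 0.26 and IL13RA1 at 0.27. ALOX15 was closest to ALPK2 at 0.14, LACTB at 0.16 and TBXT at 0.19. MAOA had no gene as close, with FCER2 at 0.63, CHRNA6 at 0.77 and BASP1 at 0.77. The gene CKMT1B has a nearly identical neighbour, CKMT1A, and the signal may come from either.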

How the data were processed

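RNA of 9 samples was hybridised to human Clariom S arrays after labelling of 250 ng. The deposited values are log2 signals. The submitters' processing notes name RMA and Transcriptome Analysis Console 4.0. The annotation, the genome build and any filter are not given in the sources used here. Quantile normalization within RMA can hide a shift common to most genes, and the floor compresses large falls.

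Of 21448 rows, 20893 transcript clusters were tested and 555 rows with unmapped IDs were left out. A symbol was found for 17705 rows and 3188 were unnamed here. All 17705 gene IDs matched RefSeq (GRCh38.p14), used for names, gene order and promoter windows. The fit used limma 3.58.1 under R 4.3.3 (1 coefficient per group, all 9 arrays, two-sided, no low-signal filter). Benjamini-Hochberg adjustment ran over all transcript clusters within each of 3 comparisons, and the threshold was 0.05. "Rose" and "fell" mean past that threshold. The fit was tested on simulated data. Folds are powers of the log2 difference.

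The members and the 10 gene lists (142 of 153 genes measured) were chosen with earlier results of these data known. Counts over these lists are therefore no independent evidence of a direction. Named genes are all members, up to 4 risen and 4 fallen genes of each list called in both clones, a fixed set of pathway genes (the Janus kinases, IL2RG, SOCS1, SOCS3, CISH, CCL17, CCL22, MAOB and ALOX5), and, as nearest in pattern, 3 genes for each member whose arrays span at least 2 log2 units. Other genes were chosen after their values were seen. The differences of MAOA and ALOX15 from control were added to those given without a test once the data were read. The comparisons of the clones with control share the control arrays.

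Array numbers pair the 2 clones: deviations from the group means correlated at 0.435, 0.191 and 0.310 for arrays 1, 2 and 3. The alternatives were centring of arrays, filters on dim rows, another variance model, array weights, fits of only the groups compared, array number as a block, arrays numbered 1 left out, each array left out and a limit on the fold.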

Additional observations from a re-analysis of the deposited data

Results flagged for a closer look

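MAOA differed between the clones, at 1.87 log2 units higher in g3_4 than in g2_1 (adjusted p = 1.83e-04 in limma, and 1.19e-04 with array number as a block), with all 3 g3_4 arrays above all 3 g2_1 arrays. The choice of MAOA may have drawn on values of these same arrays. Among the other genes of the lists, IL7R, the receptor for IL-7, differed by -2.21 (g3_4 minus g2_1, adjusted p = 0.0282, and 5.32e-04 with the block). CD70, the ligand of CD27, differed by -2.35 (adjusted p = 0.0115, and 5.36e-04 with the block). The IL7R call was lost without g2_1 array 2 (adjusted p = 0.166), g3_4 array 2 (0.164), g3_4 array 3 (0.187), control array 2 (0.0513) or control array 3 (0.0527), and the CD70 call without g2_1 array 2 (0.135) or g2_1 array 3 (0.0743).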

How the results depend on the processing

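Of the recomputed differences of the members, 437 kept their side of the threshold, and their direction where called. The other 4 were the rise of IL13 in g2_1 with 1 array left out, between 0.64 and 1.04 over all such fits. IL4 and IL13RA2 dropped out under both filters on dim rows, and IL13 and IL13RA1 under the filter at the median. Centring arrays raised the median of all transcript clusters by 0.11 in each clone against control and the rises to 2600 in g2_1 and 2413 in g3_4. It also gave 12 rises in the signalling apparatus and 1 in type 2 cytokines in g2_1. With a log2 difference of at least 1, 197 rose and 676 fell in g2_1 and 217 and 667 in g3_4. The apparatus and the related receptors then had 1 rise in each clone, and type 2 cytokines 0 falls. At or above the median level, the induced genes had 6 falls in each clone, type 2 cytokines 0, and 2 transcript clusters were lower in g3_4 than in g2_1. Between the clones, 29 were higher and 21 lower with array weights, 21 and 11 with only the 2 groups compared, 16 and 11 with the replicate block, and 21 and 8 without the arrays numbered 1. With only the 2 groups compared, the apparatus had 4 rises in g3_4 and the related receptors 1 in g2_1. Without the arrays numbered 1, the apparatus had 3 rises in g3_4 and the relatives 1 in g2_1. With each array left out in turn, rises ranged from 789 to 1390 in g2_1 and 806 to 1356 in g3_4. The clones then differed in 4 to 28 higher and 0 to 17 lower. Rises ranged from 2 to 7 in the apparatus in g3_4, 0 to 1 in type 2 cytokines in g2_1, and 1 to 2 and 1 to 3 in the related receptors. Against control, deviations of arrays 1, 2 and 3 from their group means correlated by array number at 0.28, 0.04 and 0.18 in g2_1. In g3_4 these correlations were 0.30, 0.06 and 0.26. Array 2 of g2_1 and of g3_4 correlated more with control array 3 (0.11 and 0.10) than with control array 2. The block changed no call of a member. The floor of the array limits falls, and the number of arrays limits precision.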
